A study of Mus musculus with 4 samples.

Results

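Axon guidance is the steering of growing axons by secreted and membrane-bound cues, and the 37 genes described here encode its main ligands and receptors. They are 3 Slit ligands, 3 Robo receptors, 7 semaphorins, 7 plexins, 2 neuropilins, 4 ephrins, 6 Eph receptors, and netrin 1 with 4 of its receptors. A region belonged to a gene when its midpoint lay within the gene on the same strand (mm10, GENCODE vM21). AGO2 is an Argonaute protein, the partner through which a miRNA acts on its targets. It had been pulled down with the RNA crosslinked to it (eCLIP) from brains of newborn mice (postnatal day 0, whole brain). There are 4 libraries in the labels: 1 immunoprecipitate (IP) and 1 input from wild-type brain, and 1 of each from Fmr1 knockout brain. Fmr1 encodes FMRP, an RNA-binding protein. The sample titles name the strain C57BL/6 for the wild-type libraries and no strain for the knockout ones. The labels give neither the knockout allele nor the number of brains per library.

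Of 46860 AGO2 clusters called in the wild-type IP, 567 lay in these genes, and of 86106 called in the IP labelled Fmr1 knockout, 1079 did. The authors' deposited table of the IPs, wild type over knockout-labelled, holds 46862 regions, 567 of them in these genes. Both libraries had clusters on Fmr1 itself, 2 in wild type (9 IP reads) and 5 in the other (28 IP reads), and none was enriched over input. These reads check neither the deletion nor the label, so the second library is called the knockout-labelled library. Read numbers were recovered from the deposited scores. Each log2 and -log10 p given for a region is the authors' deposited table value unless said otherwise. An input or comparison count of 1 means at most 1, because a count of 0 had been scored as 1. Relative to its IP, the input had 6.34 times the depth in the wild-type pair and 1.92 times in the knockout-labelled one. Between the IPs, the knockout-labelled library had 2.28 times the wild-type depth. With 1 IP library per genotype there is no replicate, no error between animals and no test between genotypes. Each comparison of reads below compares 2 libraries, and the exact 95% binomial intervals cover counting error only. Whole brain mixes cell types, so fewer cells that make a transcript, less of it per cell and less AGO2 on it cannot be told apart in the IP reads. Of 5 neuronal marker genes, 5 had exonic clusters in each library, with 905 wild-type and 2076 knockout-labelled IP reads. The median over these genes of the median log2 of a gene's exonic regions between the IPs was 0.18, against 2.10 for the guidance genes. The guidance genes held 869 wild-type exonic reads over 30 genes, and small counts take large log2 values. Over genes with 20 or more exonic reads, that median was 1.85 for guidance genes and 1.72 for all genes. Markers of radial glia and astrocytes had 47 and 164 reads (4 of 4 genes in each), those of the oligodendrocyte lineage 24 and 58 (1 and 4 of 4), and those of endothelial cells 3 and 19 (1 and 4 of 4). Mural cells had 28 and 7 reads (2 and 1 of 2 genes), microglia 6 and 5 (1 of 4), erythroid cells 50 and 36 (2 and 3 of 4) and choroid plexus 153 and 284 (1 of 3). What part these differences have in the comparisons of the IPs was not tested.

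The guidance families work as ligand and receptor pairs. Slit proteins repel axons through Robo receptors, and class 3 semaphorins act through neuropilins and plexins, while other semaphorins bind plexins directly. Ephrins are bound to the membrane and signal to Eph receptor tyrosine kinases on contact. Netrin 1 attracts axons through Dcc and repels them through Unc5 receptors. miRNAs bind mostly 3' UTRs by base pairing of their seed, bases 2 to 8, and the AGO2 complex then lowers translation and stability of the RNA. miR-218 connects the Slit and Robo genes: both of its genes lie in introns of Slit2 and Slit3, and Robo1 is among its known targets.

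The miR-218 sequence and the sites that match it are shown first because the ligand genes carry the miRNA and a receptor gene has a match to it within an enriched peak. The same Robo2 peak also holds a 7-base miR-181 match. The mature sequence is from the RefSeq miRNA table (GRCm38.p6), with the seed in capitals. The sites are 30-base windows of the 3' UTR on the transcript strand (mm10), written 5' to 3' with the match in capitals. An 8mer pairs with bases 2 to 8 and has an A opposite base 1. A 7-base match (7mer) pairs with bases 2 to 8, or with bases 2 to 7 and has an A opposite base 1. Both kinds count as matches throughout.
miR-218-5p: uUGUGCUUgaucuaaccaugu
Robo2, chr16:73895347-73895376, minus strand: tatttggtgatAAGCACAAatctctactcc
Robo1, chr16:73045337-73045366, plus strand: tttggttttaaAAGCACAAtcactaaactt
Both are 8mers. In wild type, the Robo2 site lay in an enriched 3' UTR peak (chromosome 16, 73895320 to 73895388) with 14 IP reads and at most 1 input read, a log2 over input of 6.47. No knockout-labelled cluster covered the site, and a neighbouring cluster that overlapped the wild-type peak held 3 IP reads. In the authors' deposited table of the IPs, the wild-type region had 14 against 5 reads (log2 2.67, -log10 p 3.91), past both limits used there. The Robo1 8mer was in no cluster of either library. Across all 37 genes, 17 held a total of 28 miR-218 matches in annotated 3' UTRs, 8 of them 8mers. Matches in the 3' UTRs of other genes were not counted, so these numbers have no background. Wild-type clusters covered 2 of the 28, and only the Robo2 8mer lay in an enriched peak. That is 1 of 36 enriched wild-type 3' UTR peaks of guidance genes, against 18 of 3190 in all (0.564%). A knockout-labelled cluster covered 1, in Slit2, with 3 IP reads. A 7-base match in the 3' UTR of Sema6a was covered by a wild-type cluster that lay below its input.

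The other sites shown are 1 per gene for every further gene with a seed match in an enriched 3' UTR peak, in order of the authors' -log10 p. Where a peak held several, 1 of the longest is shown, for Plxna1 the 8mer that lies in the enriched peaks of both libraries. Of 24 miRNA families listed, 22 had a mature sequence in the RefSeq table and were searched; miR-124-3p and miR-23b-3p were not searched. The miRNAs come first, with the seed in capitals, then the 3' UTR sites, with the match in capitals.
miR-138-5p: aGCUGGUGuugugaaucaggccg
miR-137-3p: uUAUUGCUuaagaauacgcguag
miR-17-5p: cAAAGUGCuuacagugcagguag
miR-30c-5p: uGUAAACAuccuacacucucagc
miR-128-3p: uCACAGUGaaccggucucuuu
miR-19b-3p: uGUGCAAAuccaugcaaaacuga
let-7a-5p: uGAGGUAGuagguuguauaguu
miR-92a-3p: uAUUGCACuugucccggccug
miR-125b-5p: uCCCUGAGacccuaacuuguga
Plxnb2, miR-138, 8mer: cccttcccacgCACCAGCAgcccagccgcc
Epha7, miR-137, 7mer: ctttttccttcAGCAATAtacctcatctgc
Epha4, miR-17, 8mer: acctcatccatGCACTTTAattgaagaact
Plxna1, miR-30, 8mer: tttagcatttcTGTTTACAtgcgaactgcc
Nrp2, miR-128, 7mer: agagactgattCACTGTGgaagggggggag
Sema6d, miR-19, 7mer: caccttgcctcTTGCACAaatgtcaaaatg
Unc5a, let-7, 7mer: tgtgtgtgatgCTACCTCtcttcctgtccc
Ephb2, miR-92, 8mer: ccacaagagccGTGCAATAatgacaaccac
Sema4d, miR-125, 8mer: tgcttaagattCTCAGGGAtagacttattt
The Sema6d 7mer pairs with bases 2 to 7 and has an A opposite base 1. All further 7mers shown pair with bases 2 to 8. No 2 of the 10 miRNAs printed share a seed. The Epha7 window also holds a let-7 match that begins at the base after the miR-137 match, and the Epha4 peak holds a let-7 match, the miR-17 8mer shown and a second, 7-base miR-17 match. The matches of Epha7, Epha4, Plxna1, Sema6d and Unc5a lie in an enriched peak of both libraries. Those of Plxnb2 and Nrp2 lie whole in a knockout-labelled peak alone, and those of Ephb2 and Sema4d in a wild-type peak alone.

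A cluster counted as an enriched peak when its log2 over input and its -log10 p each reached 3. In wild type, 148 of 567 clusters passed (26.1%, interval 22.5 to 29.9), against 24.1% of all wild-type clusters. Of the knockout-labelled clusters, 24 of 1079 passed (2.22%, 1.43 to 3.29), against 3.08% of all. Both shares are near their background. An enriched peak held at least 5 IP reads in wild type and at least 9 in the other library. Of the 37 genes, 30 had an enriched wild-type peak and 16 an enriched knockout-labelled peak. Genes with any enriched peak were not counted over the whole libraries, so these counts have no background. The limits passed 24.1% of all wild-type and 3.08% of all knockout-labelled clusters, so the counts do not compare the libraries. The median enriched peak held 6 wild-type and 13 knockout-labelled IP reads. Some places were cut into abutting regions, and counted once the enriched peaks lay at 116 wild-type and 22 knockout-labelled places.

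Most wild-type peaks of these genes were intronic, and among the knockout-labelled ones 3' UTRs were the largest class. In wild type, introns held 86 of 148 enriched peaks (58.1%, 49.7 to 66.2) against 33.6% of all enriched peaks. 3' UTRs held 36 (24.3%, 17.7 to 32.1) against 28.3%, and coding sequence 21 (14.2%, 9.0 to 20.9) against 26.2%. None of the 148 lay in a 5' UTR, which allows a share of up to 2.46%, against 4.21% of all enriched peaks. In the knockout-labelled library, 3' UTRs held 11 of 24 (45.8%, 25.6 to 67.2) against 36.2%, and introns 7 (29.2%, 12.6 to 51.1) against 15.2%. Coding sequence held 3 (12.5%, 2.66 to 32.4) against 19.8%. The intronic share of the guidance genes was the larger in each library. The interval excluded the share of all peaks in wild type but not in the knockout-labelled library, which has 24 peaks. Over clusters, enriched or not, both intervals excluded it. Introns held 71.6% (67.7 to 75.3) of wild-type guidance clusters against 44.1% of all, and 65.1% (62.1 to 67.9) against 42.8% in the knockout-labelled library. Over protein-coding genes with an exonic cluster, 25 of 30 guidance genes had an enriched exonic peak in wild type, against 50.8% of all such genes. For knockout-labelled clusters it was 11 of 34 genes, against 14.1%. The guidance genes also had more exonic clusters each, with medians of 5 against 2 (wild type) and 8.5 against 3 (knockout-labelled), and these shares were not adjusted for that.

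**Figure D1:**
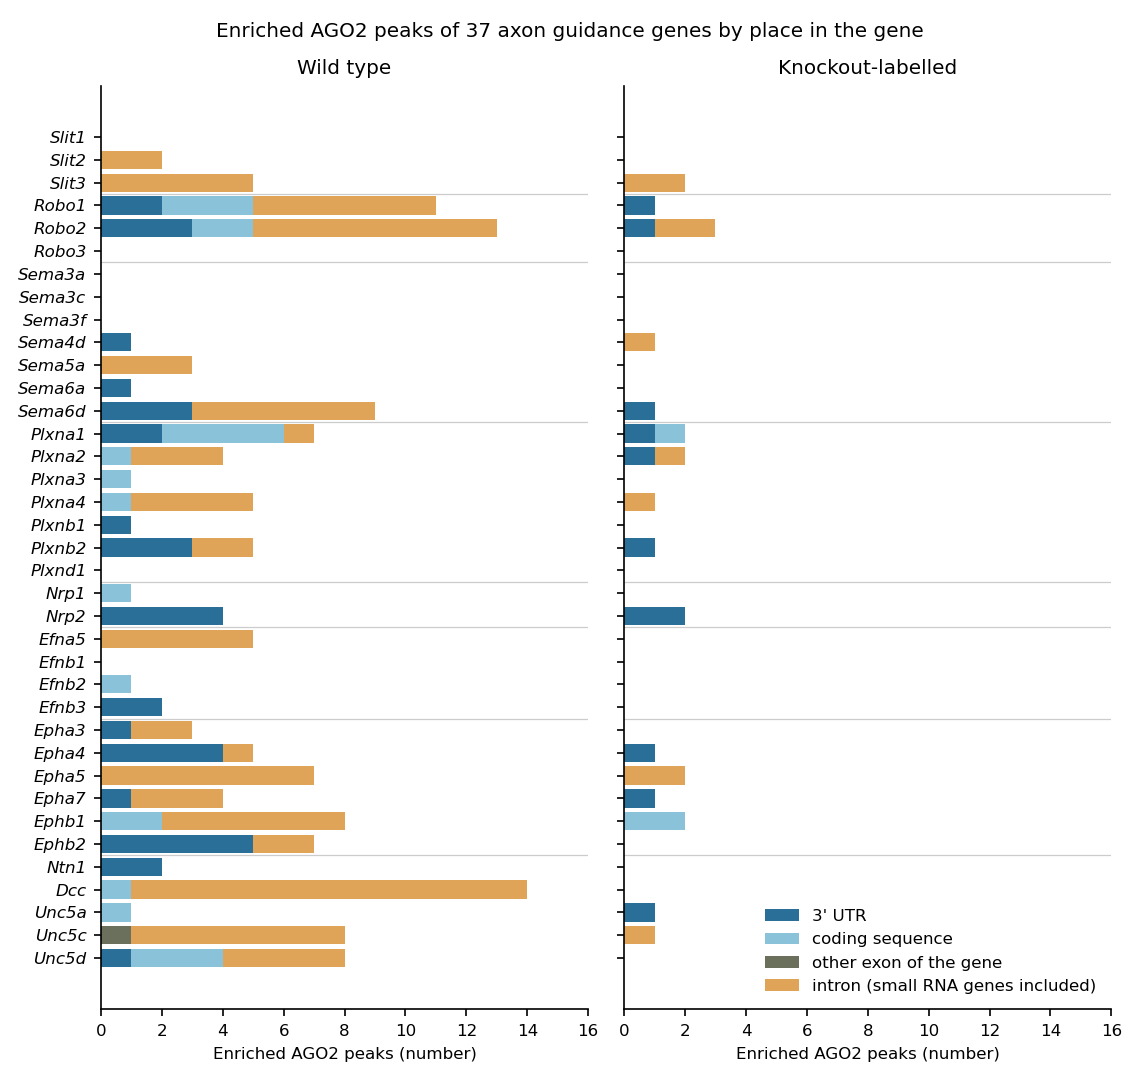
Number of enriched AGO2 peaks (horizontal axis) of each of the 37 genes (vertical axis, grouped by role) in the wild-type and the knockout-labelled library, coloured by place in the gene. Dcc has 14 wild-type peaks, 13 of them intronic, and no knockout-labelled peak, while 3' UTR peaks lead in Ephb2, Epha4 and Nrp2.

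Slit genes had 7 enriched wild-type peaks, all within introns, and 3 of them lay on the miR-218 genes. Slit3 (chromosome 11, 35121224 to 35708507) hosts Mir218-2, and its 2 abutting regions at 35616838 to 35616867 cover mature miR-218-5p (35616840 to 35616860). They held the same 41 wild-type IP reads against at most 1 input read (log2 8.02), and 60 against at most 1 in the knockout-labelled library (6.85). Slit2 (chromosome 5, 47983138 to 48307733) hosts Mir218-1, whose region held 7 reads against at most 1 (5.47), and 7 against at most 1 (3.75, -log10 p 2.51, not past the limit) in the knockout-labelled library. In the deposited table of the IPs, Mir218-2 had 41 against 61 reads (log2 0.61) and Mir218-1 7 against 8 (1.0), and neither passed. Both genes give the same mature miR-218-5p, so its reads cannot be assigned to 1 of them by sequence. The other 4 peaks held 5 to 8 reads, 3 of them in Slit3 and 1 in Slit2, led by a Slit3 peak (35270689 to 35270752) of 8 against at most 1. On exons, Slit1 had 3 wild-type and at least 45 knockout-labelled reads (2 of 14 clusters without recovered reads), Slit3 0 and 11, and Slit2 0 and 6, with no enriched exonic peak. Slit1 led the ligands in knockout-labelled exonic clusters, with 14 against 2 in Slit2 and 3 in Slit3.

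Robo1 and Robo2, the Slit receptors, were bound in 3' UTRs and coding sequence, while Robo3, which silences Slit signalling in commissural axons, had no cluster in either library. Robo2 (chromosome 16, 73891839 to 74411825) had 5 enriched exonic peaks in wild type. Besides the miR-218 peak, its 3' UTR held peaks of 10 reads against 2 (73893801 to 73893844, log2 4.99) and 7 against at most 1 (73895620 to 73895651, 5.47). The last was the one shared: the knockout-labelled library had 17 against at most 1 there (5.03), and the IPs compared at 7 against 16 reads (log2 -0.00). The miR-218 peak and its neighbour thus stood at 14 against 5 and 7 against 16 IP reads in 1 UTR, and the difference between those ratios was not tested. Robo1 (chromosome 16, 72308306 to 73046095) had coding peaks of 10 reads against 4 (72935659 to 72935680, 2 abutting regions, log2 3.99) and 5 against 2 (73012872 to 73012932). Its 3' UTR peak (73044566 to 73044625, 2 regions of 5 reads) was also enriched in the knockout-labelled library, with 9 against at most 1 (4.11).

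Semaphorins had 5 enriched exonic peaks in wild type, all in 3' UTRs, and the secreted class 3 genes had none. Sema6d (chromosome 2, 124089969 to 124667770), a transmembrane semaphorin that binds plexin A1, had 3 wild-type 3' UTR peaks. They held 8 reads against at most 1 (124665674 to 124665719, with the miR-19 match), 10 against 4, and 11 against at most 1 (124666464 to 124666535). The first was shared, with 9 against at most 1 in the knockout-labelled library (log2 4.11). The last had no knockout-labelled cluster and stood at 11 against 4 reads in the deposited table of the IPs (log2 2.65). Sema4d had 1 3' UTR peak of 5 reads with a miR-125 8mer. Sema6a had an enriched 3' UTR peak of 8 reads against at most 1 and another 3' UTR region of 24 IP against 417 input reads, below input (log2 -1.46). A knockout-labelled cluster that overlaps it also lay below input (-2.79). Sema5a had 3 intronic peaks and no wild-type exonic cluster. Sema3a had 3 wild-type exonic reads, Sema3f only knockout-labelled clusters (14 exonic reads, with 2 of 5 exonic clusters not recovered), and Sema3c 1 intronic knockout-labelled cluster.

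Among plexins, the receptors of the semaphorins, Plxna1 and Plxnb2 had exonic peaks enriched in both libraries. Plxna1 (chromosome 6, 89316314 to 89362620) had 6 enriched exonic peaks in wild type, 4 of them coding. Its 3' UTR peak with the miR-30 8mer held 9 reads against at most 1 (89317222 to 89317258, log2 5.83) and 23 against at most 1 in the knockout-labelled library (5.46). Its best coding peak held 15 against 3 (89356863 to 89356904, 4.99) and 15 against 2 (3.85). Plxnb2 (chromosome 15, 89155549 to 89180788) had 15 reads against at most 1 in its 3' UTR (89155963 to 89156021, 6.57), and the knockout-labelled library had 58 against 2 (89155918 to 89156031, 5.8). In the deposited table of the IPs this Plxnb2 region had 15 against 53 reads (log2 -0.63, -log10 p 0.78 from the reads in both directions), which did not pass. A smaller wild-type peak beside it (89155920 to 89155944) had 6 against at most 1. The miR-138 8mer (89155939 to 89155946) runs past the edge of this smaller peak, and the knockout-labelled peak covers it whole. Plxna2 had 1 coding peak of 11 against at most 1 in wild type (6.12), which had 7 against 5 in the knockout-labelled library (1.42). Its 3' UTR peak of 10 against 2 was seen in the knockout-labelled library alone. A further Plxna2 region on an exon of a non-coding gene within an intron held 8 against 3 and 19 against at most 1. Plxna4 had 1 coding peak of 9 against 5. Plxna3 and Plxnb1 had 1 exonic peak each, of 5 and 8 reads, and Plxnd1 had none.

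Nrp2, a co-receptor for class 3 semaphorins, had the exonic peak with the most IP reads in each library among the genes' own exons. This peak in its 3' UTR (chromosome 1, 62816927 to 62817031) held 41 IP against 2 input reads in wild type (log2 7.02) and 93 against 16 in the knockout-labelled library (3.48). The IPs themselves hardly differed once scaled to depth, with 41 against 94 reads (log2 -0.01). The values over input, 7.02 and 3.48, divide by 2 and 16 input reads. None of the 22 families searched had a seed match in this peak. A second Nrp2 peak, 22 against 2 (62796512 to 62796589, log2 4.40), was in the knockout-labelled library alone and holds the miR-128 match. In wild type 3 further 3' UTR peaks held 7 to 9 reads. Nrp1 had 1 coding peak of 5 reads against 2.

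Ephrins had 3 enriched exonic peaks in wild type. None of their 40 knockout-labelled clusters was enriched, where 3.08% of all such clusters passed, so few clusters met a small share. Efnb3 had 3' UTR peaks of 6 reads against at most 1 and 5 against 2, and Efnb2 a coding peak of 5 against 2. Efna5 had 5 intronic peaks and no wild-type exonic cluster, and Efnb1 had 10 exonic reads and no peak.

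Eph receptors, to which the ephrins bind, carried more enriched 3' UTR peaks in wild type (11) than any other role among these genes. Abutting regions of Epha4 and Ephb2 count separately in the 11, and shares of clusters were not compared between roles. Epha7 (chromosome 4, 28813131 to 28967499) had 1, of 21 reads against at most 1 (28966481 to 28966556, log2 7.06). The knockout-labelled value was 32 against at most 1 (5.94), and the IPs stood at 21 against 33 (0.54). Epha4 (chromosome 1, 77367185 to 77515088) had 4 peaks, led by 16 against 2 (77373640 to 77373709, 5.66), the site with the miR-17 8mer. The same place held 26 against 3 in the knockout-labelled library (4.05), and the IPs compared at 16 against 27 (0.43). Ephb2 (chromosome 4, 136647539 to 136835988) differed: its 5 regions held 5 to 13 wild-type reads, and none was enriched in the knockout-labelled library. The Ephb2 peak at 136653830 to 136653897 had 13 reads against 2 input reads (5.36) and 13 against 2 knockout-labelled IP reads (log2 3.89 in the deposited table). The 2 abutting Ephb2 regions at 136655079 to 136655101 had 10 IP against 3 and 4 input reads (4.40 and 3.99), and 10 against at most 1 knockout-labelled IP read (log2 4.51 in the deposited table). Ephb1 had a coding peak in both libraries, 8 against 3 and 9 against at most 1. Epha3 had 1 3' UTR peak of 5 reads, and Epha5 had only intronic peaks.

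Netrin 1 and its receptors had 33 enriched wild-type peaks, 24 of them intronic. Ntn1, the ligand, had 2 abutting 3' UTR regions of 6 reads against at most 1. Dcc (chromosome 18, 71253634 to 72351069) had 1 coding peak of 9 against at most 1 (5.83), which had 10 against 3 in the knockout-labelled library (2.68), below the limit. Unc5a (chromosome 13, 54949411 to 55006018) had a peak whose midpoint counted as coding in wild type and as 3' UTR in the knockout-labelled library, 8 against at most 1 (55005234 to 55005319, 5.66) and 11 against at most 1 (4.40), with the let-7 match shown. Unc5d had 3 neighbouring coding regions of 5 reads and a 3' UTR peak of 6 against 4. Unc5c had its best peak in an intron, described with the introns.

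Of the 148 wild-type peaks, 20 overlapped an enriched knockout-labelled peak (13.5%, 8.45 to 20.1), close to the 15.1% of all wild-type peaks. In the other direction 18 of 24 did (75%, 53.3 to 90.2) against 63.1%. In 3' UTRs it was 10 of 36 wild-type peaks (27.8%, 14.2 to 45.2, against 20.9%) and in introns 4 of 86 (4.65%, 1.28 to 11.5, against 5.56%). The shared peaks lay on 14 genes and gave 18 distinct pairs of values. The wild-type log2 over input was the higher in 14 of these 18. Each value divides by its own input, and the inputs differed in depth relative to the IP (6.34 and 1.92 times). At equal IP reads and at most 1 input read, the wild-type log2 is therefore the larger. The same count over all shared peaks was not made, so the 14 of 18 has no background. A knockout-labelled cluster of any kind overlapped 52 wild-type peaks (35.1%, 27.5 to 43.4, against 39.6% of all). The 96 without one lay mostly in introns (66), as did the 148 (86), with 19 in 3' UTRs. By class, a cluster overlapped 20 of 86 intronic peaks (23.3%, 14.8 to 33.6, against 16.6% of all). In 3' UTRs it was 17 of 36 (47.2%, 30.4 to 64.5, against 50.8%). Of the knockout-labelled peaks, 18 of 24 overlapped a wild-type cluster, against 73.9% of all. The 6 that did not were 1 each in Nrp2, Plxna2, Plxna4, Ephb1, Sema4d and Robo2, led by the Nrp2 peak of 22 reads.

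**Figure D2:**
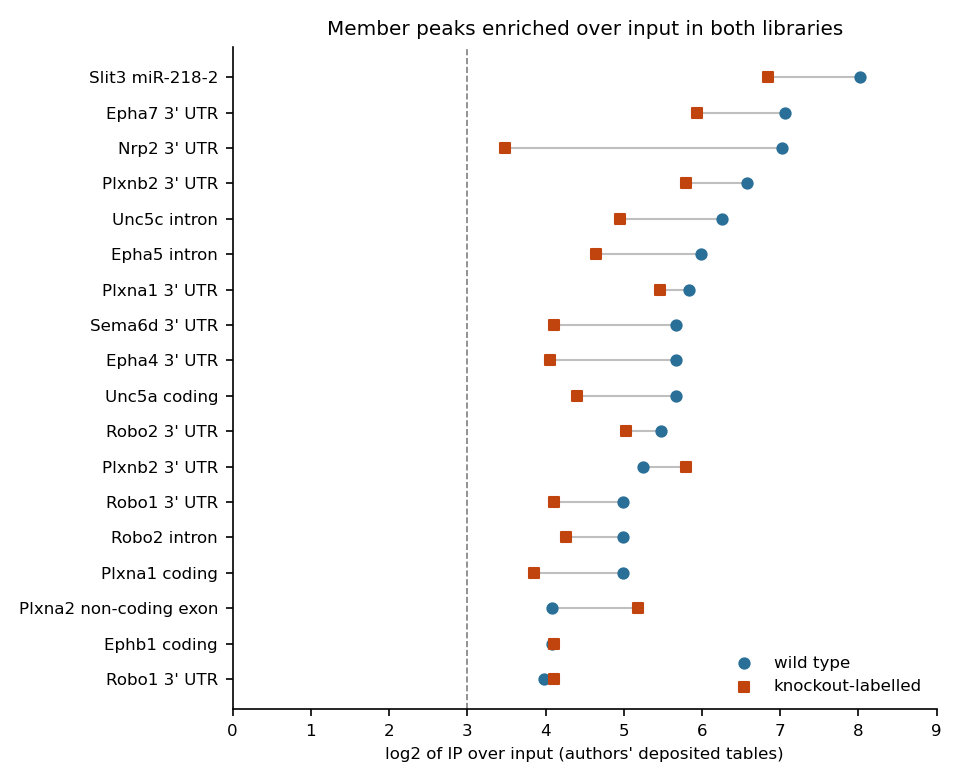
The authors' log2 of IP over input (horizontal axis) at each place enriched in both libraries, wild type as circles and knockout-labelled as squares. The dashed line is the limit of 3, and Nrp2 has the widest gap, 7.02 against 3.48.

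The deposited table of the IPs asks which wild-type regions hold a larger share of wild-type than of knockout-labelled AGO2 reads. At limits of 3 for the -log10 p and 1 for the log2, 21 of 567 guidance regions were higher in wild type (3.70%), against 3.39% of all regions, a share near the background. At limits of 5 and 2, 0 of 567 guidance regions passed and 184 of all 46862 regions did, a small share. Those 21 lay at 16 places on 11 genes. Robo1 and Robo2 had 4 each, Ephb2 3, Ephb1 and Unc5d 2 each, and Slit3, Sema5a, Sema6d, Plxna1, Unc5c and Dcc 1 each. They held 8 to 14 wild-type reads, and 18 of the 21 had at most 1 knockout-labelled read. Of the 21, 12 were intronic and 9 exonic, on Ephb2, Robo1, Robo2, Plxna1 and Sema6d. These are 5 of 30 guidance genes with an exonic region in the table, against 8.46% of all such protein-coding genes. That share was not adjusted for the number of exonic clusters per gene, which was larger in guidance genes. Robo1 had coding regions of 10 against at most 1 at 2 places (log2 4.51) and an intronic one of 11 against at most 1 (4.65). The table lists a -log10 p of 0 for every region below 0, so none could pass as lower. With p computed from the reads in both directions, 0 guidance regions were lower, against 0.174% of all regions.

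Of the regions of that table, 46799 of 46862 are clusters of the wild-type IP, so their choice favours wild type, and small counts take large log2 values. The median log2 was 2.77 in guidance regions and 2.77 over all, which is the value of 3 reads against at most 1. In 24 guidance regions with 20 or more reads in total it was 0.49 (quartiles 0.00 and 0.70), against 0.56 (-0.19 and 1.26) in all such regions. Of the places with the most reads, the Unc5c intron had 145 against 322 (0.04), the Nrp2 3' UTR 41 against 94 (-0.01), Mir218-2 41 against 61 (0.61) and a Plxna2 intron 26 against 59 (0.01). The 24 regions ran from -0.63 in Plxnb2 to 1.89 in another Plxna2 intron (13 against 8), and none passed the limits.

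**Figure D3:**
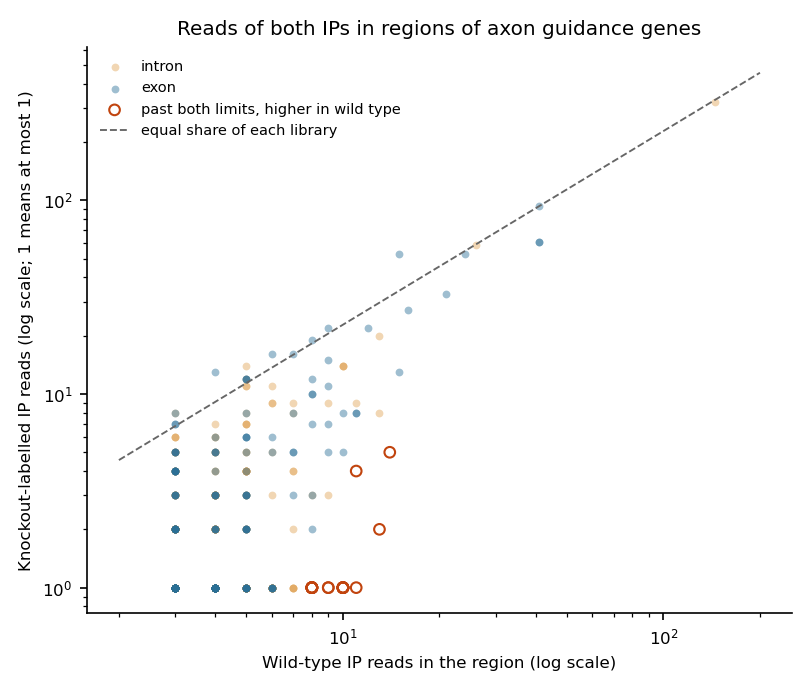
Reads of the wild-type IP (horizontal, log scale) and of the knockout-labelled IP (vertical, log scale, 1 meaning at most 1) in guidance regions with recovered reads. The dashed line marks equal shares of both libraries. Circles mark the 21 regions past both limits, which hold 8 to 14 wild-type reads.

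Reads of a gene's exonic regions were then summed, and their log2 was computed here. Of 20 guidance genes with 20 or more reads, the interval of the log2 lay above 0 in 18, where 73.9% of all 3178 such genes did. With each set of abutting regions counted once, it was 16 of 20, without Efnb2 and Ephb1, and 2147 of 3178. It lay below 0 in 0 of 20, against 0.787% of all. The median log2 was 1.46, against 1.34 over all. Ephb2 was highest, with 43 against 6 reads (4.03, 2.79 to 5.55), and its interval lay above the median of all genes. So did those of Unc5d (41 against 15, 2.64, 1.75 to 3.6) and Robo1 (48 against 19, 2.53, 1.73 to 3.37). With abutting regions counted once, the Unc5d interval (24 against 10, 2.45, 1.33 to 3.68) reached the median of all genes, and those of Ephb2 and Robo1 stayed above it. The knockout-labelled IP nonetheless had 53 exonic reads in 12 clusters of its own on Ephb2 and at least 123 in 24 on Robo1 (3 of them without recovered reads), which this table does not count. At the other end, Plxnb2 had 47 against 88 (0.28, -0.26 to 0.81), Epha7 28 against 47 (0.44, -0.29 to 1.15) and Nrp2 72 against 109 (0.59, 0.14 to 1.03). The intervals of Plxnb2, Epha7 and Nrp2 lay below the median of all genes. Neighbours in this order overlapped in their intervals.

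**Figure D4:**
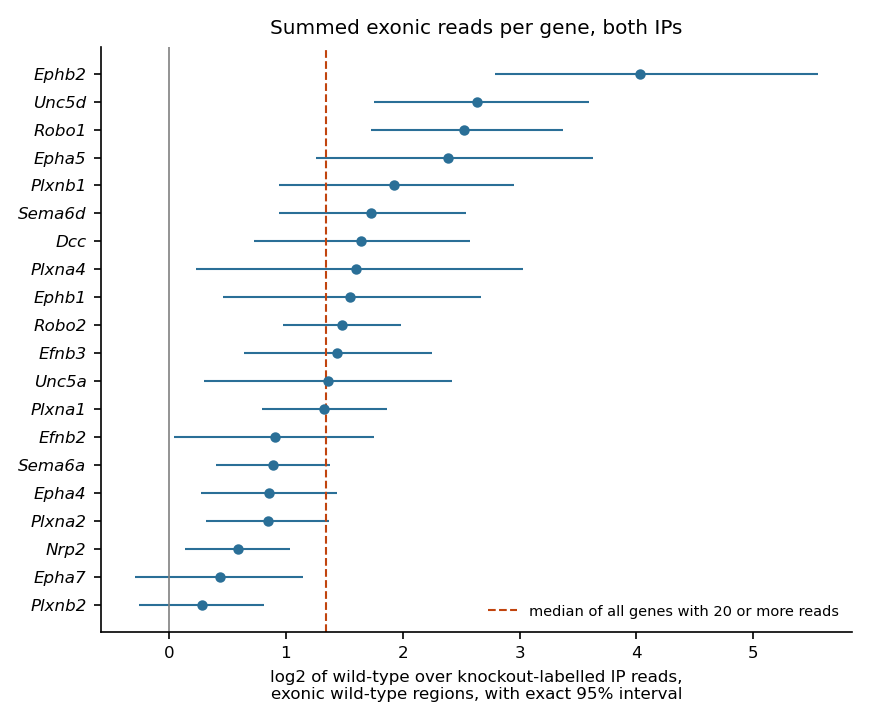
The log2 of wild-type over knockout-labelled IP reads, scaled to depth, summed over the exonic wild-type regions of each of 20 guidance genes (points) with exact 95% binomial intervals (bars). The dashed line is the median of all genes with 20 or more reads, 1.34. Ephb2 stands highest at 4.03 and Plxnb2 lowest at 0.28.

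Guidance genes are long, and clusters in their introns were counted per length. Their introns total 9.18 Mb and held 44.2 wild-type clusters per Mb, against 20.7 per Mb for introns of all protein-coding genes. The knockout-labelled values were 76.5 and 36.9 per Mb. Enriched intronic peaks came to 9.37 against 3.79 per Mb in wild type, and 0.763 against 0.40 in the other library. These densities were not adjusted for how strongly a gene is expressed in brain. The share of intronic clusters that were enriched was 21.2% against 18.3% in wild type, and 0.997% against 1.09% in the knockout-labelled library. Across the 37 genes, the number of intronic clusters followed intron length (Spearman 0.83 for wild-type and 0.81 for knockout-labelled clusters). Genes share the libraries and are not replicates, so no test is given. Dcc, the longest at 1097 kb, had 66 wild-type and 106 knockout-labelled intronic clusters. Robo2 had 17.1 intronic clusters per 100 kb in the knockout-labelled library and 5.17 in wild type, and Plxna4 16.1 and 8.14. Robo1, with longer introns than Robo2, had 3.33 and 3.05.

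**Figure D5:**
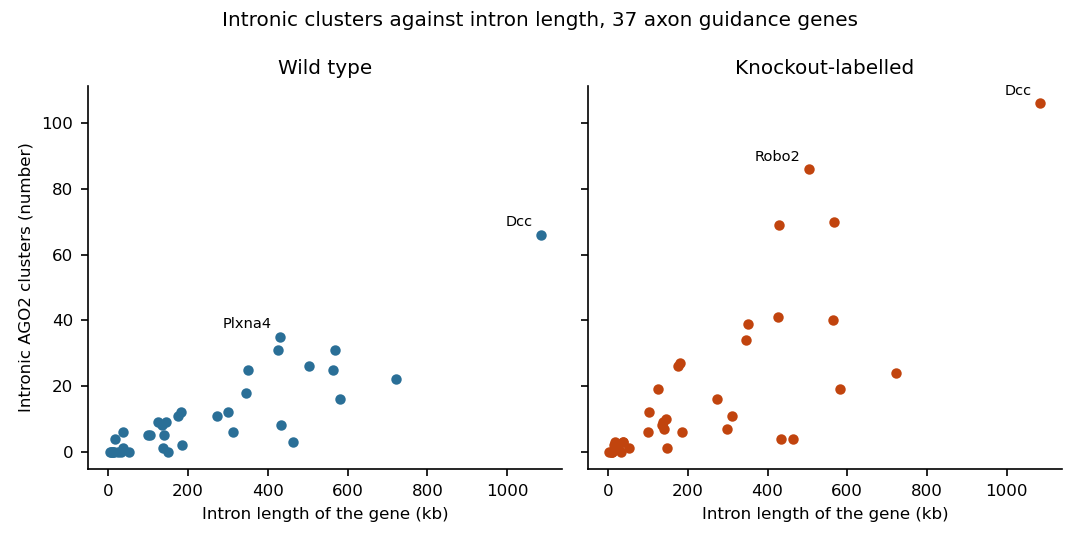
Number of intronic AGO2 clusters (vertical) against intron length in kb (horizontal) for 37 guidance genes in the wild-type and the knockout-labelled library. Dcc is highest in both panels, with 66 and 106 clusters.

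The wild-type peak with the most IP reads among all guidance genes was intronic. In Unc5c (chromosome 3, 141465216 to 141834924), the intronic region at 141485135 to 141485257 held 145 wild-type IP against 12 input reads (log2 6.26, -log10 p at the largest listed value, 400), and the knockout-labelled library also listed 400 (4.95). The next intronic peak, in Plxna2 (chromosome 1, 194775122 to 194775207), held 26 against 5 (5.04), and in the knockout-labelled library 58 against 18 (2.63), under the log2 limit. Both sequences are shown, since both hold a let-7 8mer match (capitals) and a run of CA repeats, which adjoins the match in Plxna2 and lies apart from it in Unc5c.
Unc5c, chr3:141485135-141485257, plus strand: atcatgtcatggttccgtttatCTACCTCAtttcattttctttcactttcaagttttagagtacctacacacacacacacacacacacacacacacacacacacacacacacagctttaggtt
Plxna2, chr1:194775122-194775207, plus strand: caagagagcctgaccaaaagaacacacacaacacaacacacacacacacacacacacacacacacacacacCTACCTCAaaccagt
The longest unbroken CA run is 46 bases in Unc5c and 34 in Plxna2. Of all enriched wild-type intronic peaks, 2.06% hold CTACCTCA and 4.27% hold CACACACACA on the transcript strand, and 3.85% hold its reverse complement TGTGTGTGTG. In guidance genes these counts were 3, 2 and 2 of 86. These motifs, and the places they were sought in, were chosen after the values had been seen.

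Of 145 wild-type guidance peaks outside miRNA genes, 13 held a let-7 match (8.97%, 4.86 to 14.8), an interval that includes the 5.04% of all such peaks. The coding peaks of Plxna1 and Plxna2 also hold one, shown with the match in capitals.
Plxna1 coding, chr6:89356863-89356904, minus strand: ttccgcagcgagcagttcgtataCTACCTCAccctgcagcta
Plxna2 coding, chr1:194810873-194810937, plus strand: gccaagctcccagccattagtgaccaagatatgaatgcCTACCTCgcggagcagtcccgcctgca
Of 25 wild-type guidance peaks with 10 or more IP reads outside miRNA genes, 8 held a let-7 match (32.0%, 14.9 to 53.5), 4 of them 8mers, against 10.6% (9.24 to 12) of 1918 such peaks in all. The 8 lay on 6 genes: Unc5c, Plxna1, Plxna2, Epha4, Epha7 and Dcc. Of 120 guidance peaks with fewer reads, 5 held one (4.17%, 1.37 to 9.46), against 3.84%. In the knockout-labelled library it was 5 of 17 peaks with 10 or more reads (29.4%, 10.3 to 56.0), an interval that includes the 12.7% of all. The split at 10 reads was made after the values had been seen, and no test is given.

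Over all 22 families, fewer wild-type 3' UTR peaks of guidance genes held a match than in the whole library, by a difference within the counting interval. It was 8 of 36 (22.2%, 10.1 to 39.2) against 35.5%, at median peak lengths of 51.5 and 51 bases. In the knockout-labelled library it was 7 of 11 (63.6%, 30.8 to 89.1) against 49.5%. In coding sequence 6 of 21 wild-type peaks held one (28.6%, against 29.1%), and in introns 19 of 86 (22.1%, against 16.5%). A match is a string of letters and does not show that the miRNA was bound there.

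The study's title names G-quadruplexes, so the RNA of enriched exonic peaks and 50 bases on either side was searched for 4 stretches of 3 or more guanines spaced by 1 to 7 bases. In wild type 2 of 62 guidance peaks had one (3.23%, 0.393 to 11.2), against 3.61% of all. They were 3' UTR peaks of Efnb3 and Ephb2, and the Efnb3 motif lay within the peak. Of the knockout-labelled peaks, 0 of 17 did, which allows up to 19.5%, against 4.68% of all.

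Other genes of the pathway were taken from 2 lists. Of 43 other ligands and receptors (further Robo, semaphorin, plexin, Eph, ephrin and netrin genes, with Flrt, Dscam and other receptors), 27 had an exonic cluster in wild type and 16 of these an enriched exonic peak (against 50.8% of all genes), and 30 and 7 in the knockout-labelled library (against 14.1%). Regions higher in wild type, by the same limits, lay on 2 of them, Sema7a, a membrane-anchored semaphorin (13 against 5 reads, log2 2.57), and Plxnc1, its receptor (10 against at most 1, 4.51). Of 33 intracellular effectors, 27 had an exonic cluster in wild type and 16 of these an enriched peak, and 32 and 4 in the knockout-labelled library, against the same backgrounds. Regions higher in wild type lay on 7: Srgap1, Enah, Dpysl2, Trio, Cdc42, Farp1 and Vav2. Dpysl2, a mediator of semaphorin signals on microtubules, had 17 against 6 reads (2.69), and Enah, an actin regulator, 15 against 8 (2.09). None of either list was lower. Of the genes with an exonic region in the table, the higher ones were 2 of 27 in the first list and 7 of 27 in the second, against the 8.46% of all. The shares of both lists were not adjusted for the number of regions or reads per gene.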

How the data were processed

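AGO2 eCLIP and input libraries of postnatal day 0 mouse brain were processed by the authors. Per the labels' protocols and the submitters' processing notes, reads were trimmed with Cutadapt 1.15, repeat reads removed, STAR 2.6.0c mapped what was left to mm10, duplicates were removed by UMI, and CLIPper clusters were scored against input by a custom script. Each deposited region carries a log2 ratio of read densities from the authors and their -log10 p, with 400 the largest listed. How the table of the IPs was made is not given in the sources used here.

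Reads were recovered from the scores: the log2 fell on a depth constant plus the log2 of a whole-number ratio in 99.97% of regions of either IP's own table and 99.96% of those of the table of the IPs (relative tolerance 1e-07), and the -log10 p was met within 1%. Wild-type reads from both tables were equal in 42615 of 42615 regions, with wild type as numerator in the table of the IPs. The recovery returned 100% of reads on simulated scores of each table. Regions with a -log10 p of 0 or 400 in every table gave no reads. In the knockout-labelled library this left out 135 of 1079 member regions. Of 114 member start codons, 114 read ATG on the genome used. Regions took their annotation at the midpoint with coding sequence taking precedence, then 3' UTR, 5' UTR, exons of non-coding transcripts and introns. Intervals are exact (Clopper-Pearson). Abutting regions may share reads.

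Every member was accounted for by role. In each role the members with an enriched exonic peak or a region past the limits were described, up to 4 with the most exonic IP reads in full. Sites were printed for up to 12 enriched 3' UTR peaks, 1 per gene, and for each miR-218 site in such a peak, none on chromosome 18. The Robo1 site and the coding and intronic sequences were added after their values were seen. Members and lists were chosen with earlier results of these data known. Python 3.11.15, scipy 1.17.1, pandas 2.3.3 and samtools 1.23.1 were used.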

Additional observations from a re-analysis of the deposited data

How the results depend on the processing

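With 1 library per genotype, no replicate could be left out, and the intervals do not cover differences between animals. No paired analysis was possible because each group has 1 library. At stricter limits (-log10 p of 5 and log2 of 4 over input), 50 wild-type and 12 knockout-labelled member peaks remained in place of 148 and 24, and 3' UTRs held 34.0% of the wild-type ones in place of 24.3%. At 5 and 2 in the table of the IPs, 0 of 567 member regions were higher in wild type in place of 21, and 184 of all 46862 regions. The median log2 of member regions was 0.49 in place of 2.77 with 20 or more reads. Against any knockout-labelled cluster, 35.1% of wild-type member peaks overlapped in place of 13.5%. The median gene log2 was 1.85 from region medians in place of 1.46 from summed reads. Quadruplex motifs within the peak alone were beside 1 wild-type peak in place of 2, and with loops of up to 12 bases beside 1 knockout-labelled peak in place of 0. With abutting regions merged, the gene interval lay above 0 in 16 of 20 genes in place of 18, without Efnb2 and Ephb1. The other 20 of 29 alternatives left counts within 1.5 times and values within their spread or interval. Merging abutting regions, added after seeing the data, was among those 20 for each of the 4 results it was run on.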
